A study of Drosophila melanogaster with 8 samples.

Results

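The genes described here build and run the contractile unit of striated muscle, the sarcomere, and they were followed in the heads of Drosophila melanogaster females kept in long or short days. The starting list held 31 names. Unc-89 is an older name of Obsc, so the list stood for 30 genes, of which 24 had a probe set annotated to them alone and were measured, among 11982 such genes on the array. The members were chosen by function and with earlier results of these data known, and 1 measured value could remove a gene, namely an excess of more than 1 log2 unit in short-day sample 3 over the highest of the other 7 samples. None of the 24 was removed. Act57B, Tm1, wupA, TpnC47D, TpnC25D and Mef2 were not analysed here.

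All flies were Canton-S, a wild-type laboratory strain, moved within 8 h of eclosion to 12.5 °C, where they stayed for 12 days before whole female heads were taken 4 h after lights-on. One group had 16 h of light and 8 h of dark (long-day photoperiod) and the other 10 h of light and 14 h of dark (short-day photoperiod), as the labels give them. The study's methods differ from the labels in giving a shorter light phase for the short-day group and a narrower window of collection after eclosion. They also give a wider window after lights-on for taking the heads and, for the gene expression profiling, a slightly lower temperature. Each group had 4 samples, each on 1 Affymetrix Drosophila Genome 2.0 array, and the sources do not say whether they were separate rearings. The p-values therefore rest on sample-to-sample spread that could be partly technical.

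In striated muscle, thick filaments of myosin slide along thin filaments of actin, which are anchored in Z-discs. Calcium released inside the fibre binds troponin C and moves tropomyosin off the actin, and an ATP-driven pump returns the calcium to the sarcoplasmic reticulum. Giant proteins of the titin family link the filaments and set their spacing. A fly head holds muscles that move the proboscis, the pharynx and the antennae, while the large flight and jump muscles lie in the thorax and use some isoforms of their own. The arrays measured whole heads, and no value shows in which muscle a transcript lay. In such bulk samples a change in the number or size of muscle fibres and a change in transcript per fibre cannot be told apart.

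Values are deposited log2 expression values, and a difference of 1 is a doubling. The arrays correlated pairwise with r between 0.983 and 0.996 across the 9107 probe sets of mean 4 or more, a level used here as the lower limit of a measurable signal. Head markers were present as labelled: the 9 measured photoreceptor markers and the 12 neuron markers all had a mean of 4 or more, and 6 of 7 ovary markers stayed below 3 on every array. Short-day sample 3 stood apart on some of these lists, above all for transcripts of flight muscle. In that sample fln (flightin, a thick filament protein of flight muscle) was at 11.71, against at most 2.69 in the other 7, and TpnC4, a troponin C of flight muscle, was at 10.36, against 2.15 in each of the others. Fbp1, a fat body marker, was at 6.26 in the same sample and at 2.22 in each of the others. Results below are therefore also given without that sample.

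Of the 24 measured sarcomere genes 10 rose in short-day heads and none fell at an unadjusted p under 0.01, the threshold of the study, in a limma fit over all 18769 probe sets. The 10 were Mlc1, Mlc2, Prm, Tm2, sals, bt, Obsc, Strn-Mlck, Zasp52 and SERCA, with rises between 1.20-fold and 1.57-fold. For comparison, 1.79% of all genes were called higher and 1.69% lower, and among genes of mean 4 or more, to which 23 of the 24 belong, 2.91% were called higher. All 23 had a mean difference above 0, with a median of 0.36 on the log2 scale, where the median over the 7348 genes of that brightness was 0.02. The share of all genes above 0 was not counted. In lists described below, all 12 neuron markers, 8 dystrophin complex genes and 7 epidermis and cuticle markers of that brightness were also above 0. By contrast, 1 of 8 glia markers and 1 of 9 fat body markers were. None of the 24 had an adjusted p under 0.05, and no other gene on the array did (0% of all genes). At an unadjusted p under 0.05, 20 of the 24 were higher, against 6.04% of all genes and 9.69% of those of mean 4 or more. The adjusted p of the 10 called genes lay between 0.156 and 0.318 (limma, Benjamini-Hochberg over all probe sets). In 15 of the 24 all 4 short-day values lay above all 4 long-day values, against 6.18% of genes of mean 4 or more. Because the genes were picked with this contrast known, these counts describe the list and carry no test of it.

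**Figure D1:**
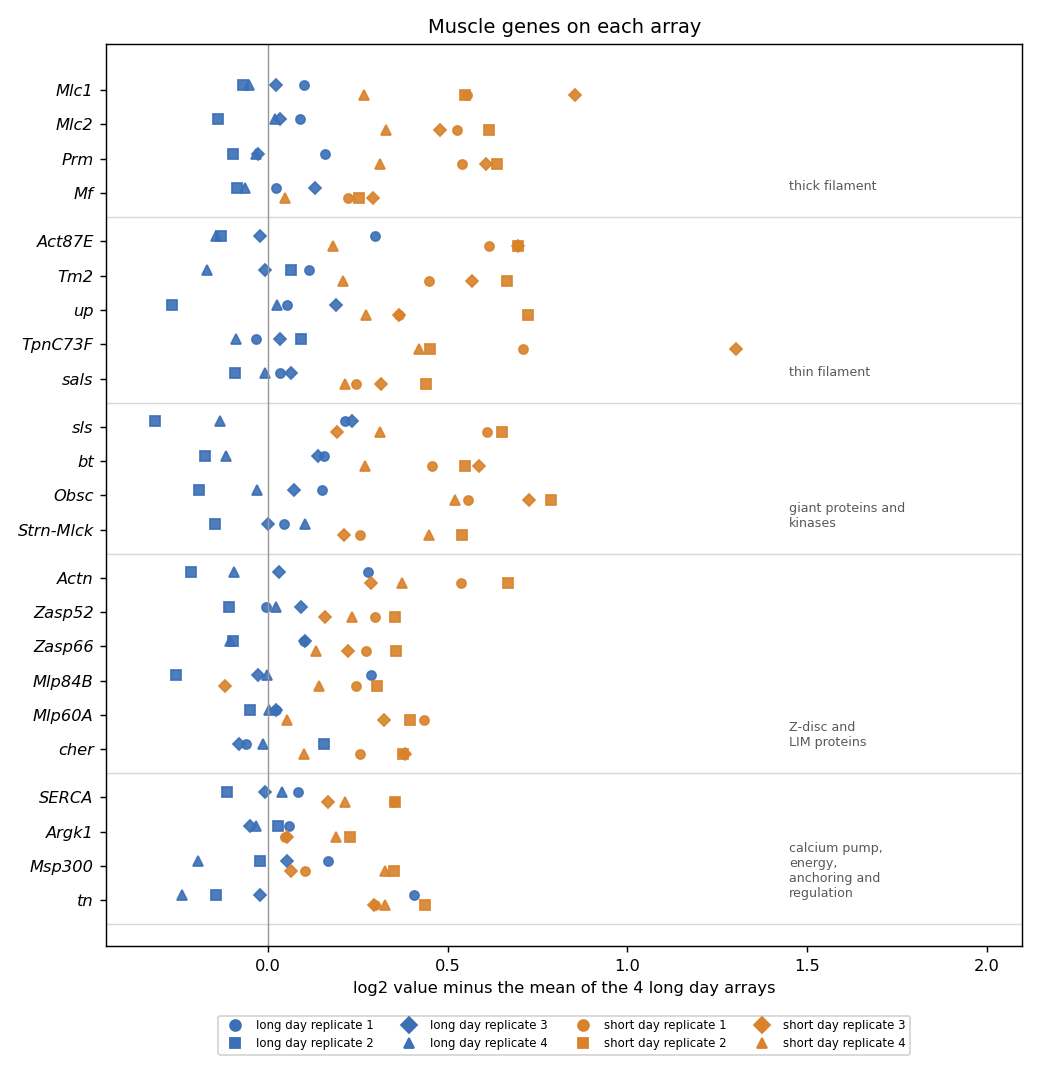
Value of each of the 23 measurable genes on each array (x axis, log2 value minus the mean of the 4 long-day arrays; blue, long-day; orange, short-day; marker shape, replicate number). Short-day points lie mostly to the right of long-day points in each of the 5 role groups, and TpnC73F and Mlc1 reach furthest in short-day sample 3.

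Thick filament genes come first. Mlc2, the regulatory light chain of myosin, was at 13.53, 13.30, 13.48 and 13.46 in long-day samples 1 to 4 and at 13.97, 14.06, 13.92 and 13.77 in short-day samples 1 to 4. The groups did not overlap, and the difference was 0.49 ± 0.08 (log2, limma estimate ± SE; 1.40-fold, adjusted p = 0.171). Mlc1, the alkali light chain, was at 13.20, 13.03, 13.12 and 13.04 in long days and at 13.65, 13.65, 13.95 and 13.37 in short days. Its highest value was that of short-day sample 3. The difference of 0.56 ± 0.12 (1.47-fold, limma adjusted p = 0.279) was 0.46 without that sample and stayed called. Prm encodes paramyosin, which forms the core of the thick filament in invertebrates, and was at 12.60, 12.34, 12.41 and 12.41 in long days and at 12.98, 13.08, 13.05 and 12.75 in short days. Every short-day value was above every long-day value, with a difference of 0.52 ± 0.09 (1.44-fold, limma adjusted p = 0.176). Mf, or myofilin, another thick filament protein, had values of 13.66, 13.55, 13.76 and 13.57 in long days and 13.85, 13.89, 13.92 and 13.68 in short days. These groups overlapped, since short-day sample 4 was below long-day sample 3, and the difference of 0.20 (95% interval 0.03 to 0.37) was not called (limma adjusted p = 0.480).

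Of the thin filament genes 5 of 10 on the list were measured. Tm2, a tropomyosin, was at 12.25, 12.20, 12.12 and 11.96 in long days and at 12.58, 12.80, 12.70 and 12.34 in short days. The groups were separated by a difference of 0.47 ± 0.11 (1.39-fold, limma adjusted p = 0.301). Without short-day sample 3 the difference was 0.44 and the call was lost. The gene sals, named for the short sarcomeres of its mutant, takes part in lengthening thin filaments from their pointed ends. It was at 7.22, 7.09, 7.25 and 7.18 in long days and at 7.43, 7.62, 7.50 and 7.40 in short days, again without overlap (difference 0.30 ± 0.06, 1.23-fold, limma adjusted p = 0.215). The other 3 were not called. Act87E, a muscle actin, was at 12.59, 12.17, 12.28 and 12.15 in long days and at 12.91, 12.99, 12.99 and 12.48 in short days. Long-day sample 1 exceeded short-day sample 4, and the difference was 0.55 (95% interval 0.17 to 0.92, limma adjusted p = 0.384). Actin genes are close to identical in sequence and this probe set is of the kind whose probes can match several transcripts, so its value may include other actins. The same kind of probe set represented 6 of the 24 genes, among them Tm2 and sals. For up, which encodes troponin T, the difference was 0.43 (95% interval 0.11 to 0.76), with all short-day values above all long-day values.

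TpnC73F, a troponin C, was the dimmest measurable member and had the highest difference, 0.72 (95% interval 0.23 to 1.21), which was not called (limma adjusted p = 0.374). It was at 5.79, 5.91, 5.85 and 5.73 in long days and at 6.53, 6.27, 7.12 and 6.24 in short days. The groups did not overlap, and short-day sample 3 was 0.59 above the next highest sample, the largest such excess among the 24 genes. Without that sample the difference fell to 0.53 and was called. The next largest excess, 0.55, was that of Zasp67, which sat at the lowest value of the arrays, 2.15, on all but short-day sample 3, where it was at 2.70. Its difference is therefore not a measurement. Just outside the limit of 1 lay the muscle genes Act79B, a muscle actin, and TpnC41C, another troponin C, with excesses of 1.40 and 1.60 in short-day sample 3. Neither was on the list.

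The proteins of titin type form the next group, with 3 of 4 measured genes called. Obsc encodes obscurin, a giant protein of the M-line in the middle of the sarcomere. It was at 9.57, 9.23, 9.49 and 9.39 in long days and at 9.98, 10.21, 10.15 and 9.94 in short days. No values overlapped, and its rise of 0.65 ± 0.10 (1.57-fold) had the smallest p among the 24 genes (limma adjusted p = 0.156). bt encodes projectin, the twitchin of the fly, which runs along the thick filament. It was at 12.46, 12.12, 12.44 and 12.18 in long days and at 12.76, 12.85, 12.89 and 12.57 in short days, a difference of 0.47 ± 0.11 (1.38-fold, limma adjusted p = 0.293). Without short-day sample 3 the difference was 0.42 and was not called. Strn-Mlck encodes stretchin and a myosin light chain kinase. Its brightest probe set was at 11.16, 10.97, 11.11 and 11.22 in long days and at 11.37, 11.65, 11.32 and 11.56 in short days (difference 0.36 ± 0.09, 1.29-fold, limma adjusted p = 0.318). Here short-day sample 3 was the lowest of its group. For sls, which encodes the titin-like proteins that join thick filaments to the Z-disc, the difference was 0.44 (95% interval 0.03 to 0.85, not called), with long-day values up to 9.73 and short-day values down to 9.69.

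**Figure D2:**
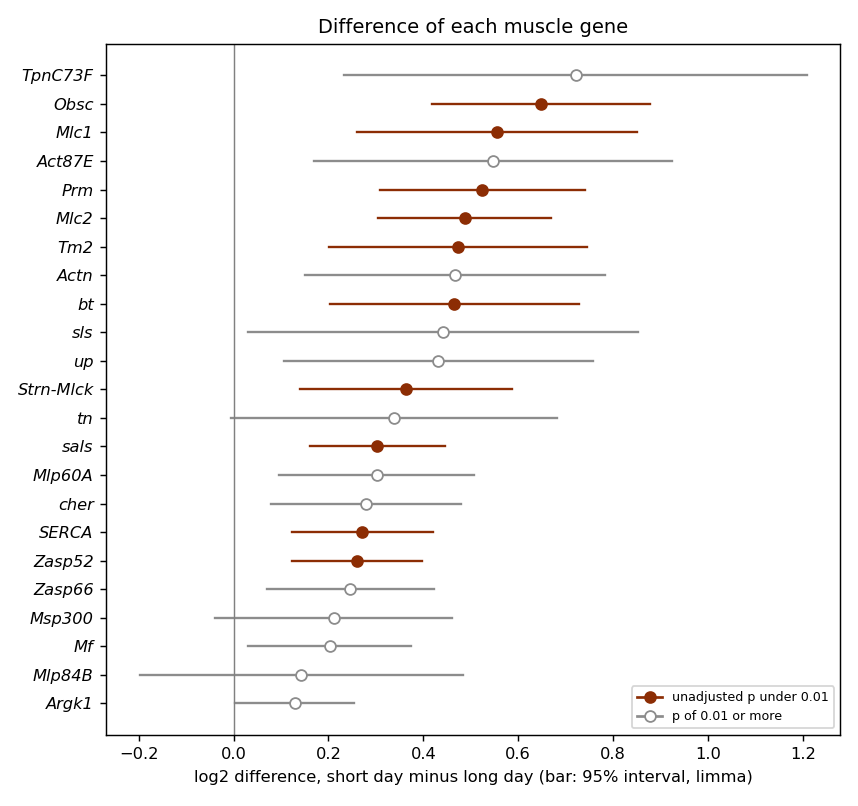
Difference between short-day and long-day means for the 23 measurable genes (x axis, log2; bars, 95% intervals from limma; filled points, unadjusted p under 0.01). The points run from 0.13 for Argk1 to 0.72 for TpnC73F, and 20 of the 23 intervals lie above 0.

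Of the Z-disc and LIM domain genes 7 were measured and 1 was called, and their median difference was 0.26, against 0.51 for the thick filament genes. The count and the median include Zasp67, whose difference is not a measurement. Zasp52, a PDZ and LIM domain protein that binds alpha-actinin, was at 12.62, 12.52, 12.72 and 12.65 in long days and at 12.93, 12.98, 12.79 and 12.86 in short days. It rose by a small amount without overlap (difference 0.26 ± 0.06, 1.20-fold, limma adjusted p = 0.277). Its relative Zasp66 had a similar difference, 0.25 (95% interval 0.07 to 0.42), which was not called. Actn encodes alpha-actinin, which crosslinks actin filaments in the Z-disc, and had a difference of 0.47 (95% interval 0.15 to 0.78, limma adjusted p = 0.377). Mlp60A and Mlp84B are muscle proteins with LIM domains. Mlp60A was at 13.79, 13.72, 13.79 and 13.77 in long days and at 14.20, 14.16, 14.09 and 13.82 in short days. All short-day values were higher, but short-day sample 4 was above the long-day samples by little, and the difference of 0.30 was not called (95% interval 0.10 to 0.51, limma adjusted p = 0.378). The values of Mlp84B overlapped widely between the groups, with a difference of 0.14 (95% interval -0.20 to 0.48). The difference of cher, encoding filamin, was 0.28 (95% interval 0.08 to 0.48, not called).

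The remaining genes serve calcium, energy supply and anchoring. SERCA, the pump that returns calcium to the sarcoplasmic reticulum, is also used outside muscle. It was at 13.83, 13.64, 13.75 and 13.79 in long days and at 14.10, 14.10, 13.92 and 13.97 in short days, which did not overlap (difference 0.27 ± 0.06, 1.21-fold, limma adjusted p = 0.281). Argk1, arginine kinase, holds a store of high-energy phosphate in insect muscle and nerve and gave the lowest difference of all. Its values were 14.08, 14.05, 13.97 and 13.98 in long days and 14.06, 14.25, 14.07 and 14.21 in short days, which overlapped (difference 0.13, 95% interval 0.00379 to 0.254, limma adjusted p = 0.548). Msp300, a nesprin that positions nuclei and mitochondria in muscle, and tn (thin), the fly relative of TRIM32 that maintains myofibrils, overlapped between the groups as well, with differences of 0.21 (95% interval -0.04 to 0.46) and 0.34 (95% interval -0.00441 to 0.682).

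Further probe sets of the same genes come from the same arrays and contrast and are given as a description of it. There were 19 of them for 10 genes, of which 12, for 7 genes, had a mean of 4 or more. All 12 had a difference above 0, and 2 were called, both upwards, where 3.11% of probe sets of that brightness were called higher. One belonged to SERCA, with a difference of 0.31 on a probe set at a mean of 9.51 (limma adjusted p = 0.281), close to the 0.27 and 0.28 of the brighter probe sets of the gene. The other was a dim probe set of Mlp60A. It was at 4.72, 4.38, 4.33 and 4.65 in long days and at 5.15, 5.37, 5.84 and 4.95 in short days, without overlap (difference 0.81, limma adjusted p = 0.321). The 3 probe sets of Mlp60A thus gave 0.81, 0.45 and 0.30, in order of rising brightness from a mean of 4.93 to 13.92. The second probe set of Prm gave 0.58 and that of Mf 0.20, against 0.52 and 0.20 for the first. Of the 3 further probe sets of Msp300 that were measurable none was called, with differences from 0.12 to 0.25. In 6 of the 12 all short-day values lay above all long-day values, against 6.41% of probe sets of that brightness. The other 7 had a mean under 4, and 1 of these, a probe set of Msp300 at a mean of 3.54, was lower on every short-day array than on any long-day array (difference -0.09, not called).

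**Figure D3:**
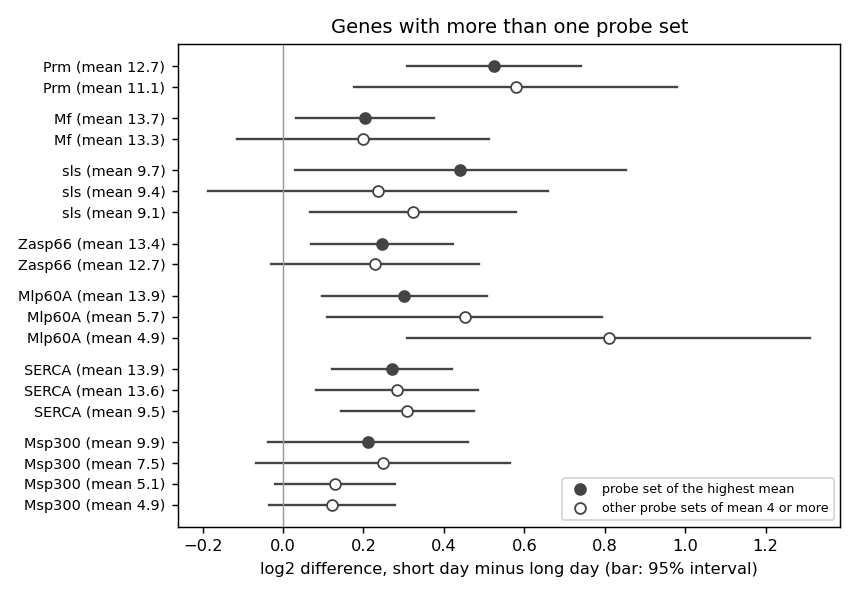
Genes with more than 1 probe set of mean 4 or more (x axis, log2 difference between short-day and long-day means with 95% interval; filled, the probe set that represents the gene; open, the others; labels, mean log2 value). All 12 open points lie above 0, between 0.12 for Msp300 and 0.81 for Mlp60A.

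A further probe set of Strn-Mlck behaved differently from the one that represents the gene. It was at 9.37 in short-day sample 3 and at 2.15 in each of the other 7 samples, like fln and TpnC4. The brightest probe set of Strn-Mlck was at 11.32 in that sample, the lowest of the short-day values but above every long-day value. The gene was kept because the limit was applied to the brightest probe set.

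The samples differed in how far the sarcomere genes were raised. Relative to the long-day means, the median over the 23 measurable genes was 0.10, -0.11, 0.03 and -0.03 in long-day samples 1 to 4 and 0.36, 0.45, 0.32 and 0.27 in short-day samples 1 to 4. Short-day sample 2 had the highest short-day value for 17 of the 23 genes, and short-day sample 4 the lowest for 14. Short-day sample 2 was also the brightest array as a whole. Its median over all probe sets of mean 4 or more was 8.52, against 8.44 to 8.46 in the other samples. With each array centred on this median, the median difference over the 24 genes was 0.33, against 0.35 without centring, and all 24 stayed above 0. The cause of the offset was not tested. Among the long-day samples, sample 1 was highest for 13 genes and sample 2 lowest for 15. Long-day sample 1 was at or above short-day sample 4 for 3 genes, Act87E, Mlp84B and tn.

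The sample that stood apart for flight muscle transcripts was not the one with the highest sarcomere values. Short-day sample 3 was the highest of its group for 5 of the 23 genes and the lowest for 8. In the flight and jump muscle list, Act79B was at 10.71 to 11.05 in long days and at 11.42, 11.64, 13.04 and 11.07 in short days, and TpnC41C was at 8.75 to 9.14 in long days and at 9.51, 9.88, 11.48 and 8.95 in short days. Act88F, the flight muscle actin, was at 7.84 to 8.93 in long days and at 8.87, 8.89, 13.10 and 7.98 in short days. None of the 6 genes in that list was called, and salm, a transcription factor that directs flight muscle identity, was at 7.08 in short-day sample 3, within the range of the others. The summed level of the list (log2 of the summed values) was 11.33 to 11.71 in long days and 11.58 to 14.60 in short days. Without short-day sample 3, 9 of the 24 sarcomere genes were called, all upwards, where 2.01% of all genes were called higher. Of these, 8 were among the 10, with Tm2 and bt lost and TpnC73F gained. The median over the 24 genes was 0.38 without that sample and 0.35 with it.

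**Figure D4:**
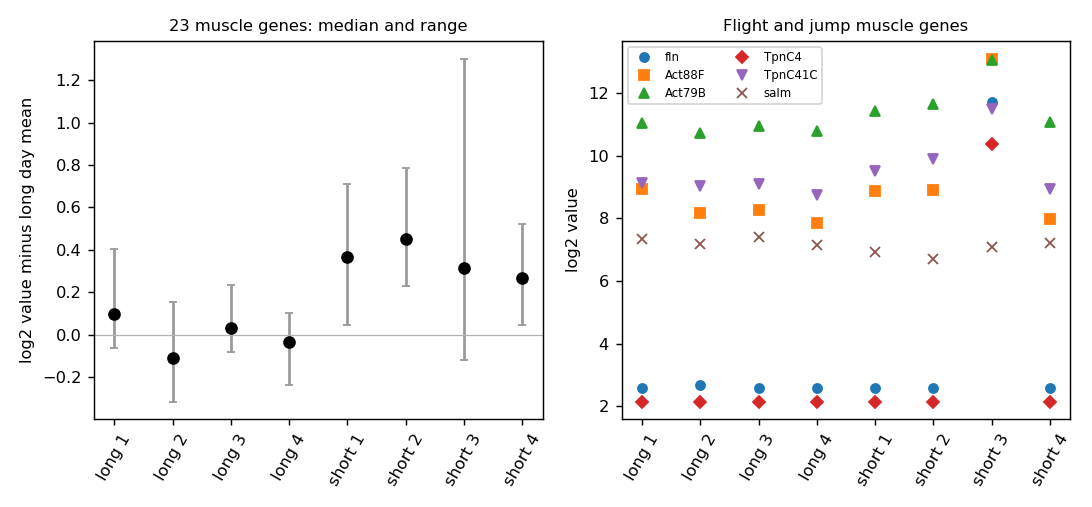
Left, median (point) and range (bar) over the 23 measurable sarcomere genes on each array, as log2 value minus the long-day mean. Right, log2 values of the 6 flight and jump muscle genes; short-day sample 3 stands apart for fln, TpnC4, Act88F, TpnC41C and Act79B, while the sarcomere median there, 0.32, lies between those of the other short-day samples.

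Calls of single genes depended on single samples to different degrees. The calls of Mlc2, Prm, Obsc and sals were kept in each of the 8 fits without 1 sample. Zasp52 lost its call without long-day sample 1 or short-day sample 1, and SERCA without long-day sample 3 or short-day sample 1 or 2. For Mlc1 the call was lost without long-day sample 2 or 4 or short-day sample 1 or 2. The call of bt was lost without long-day sample 2 or 4, or short-day sample 1, 2 or 3. Tm2 lost its call without any 1 of 6 samples, namely long-day 2, 3 or 4 and short-day 1, 2 or 3, and Strn-Mlck without any 1 of 5, namely long-day 1, 2 or 3 and short-day 2 or 4. Each of these genes stayed higher in short days in all 8 fits. Only 5 of the 24 genes were called without short-day sample 1, and 5 without short-day sample 2, where 1.13% and 1.03% of all probe sets were called higher, against 1.52% with all samples.

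The other lists of muscle genes, apart from the flight and jump muscle genes (median 0.93 over 4 genes of mean 4 or more), had medians between 0.07 and 0.30. Without short-day sample 3 the differences of those 4 genes were 0.27 (Act88F), 0.50 (Act79B), 0.44 (TpnC41C) and -0.32 (salm). Of 8 further sarcomere genes on a second list 5 were measured and 1 rose, CG1674, from 9.53 ± 0.07 to 10.04 ± 0.15 (mean ± SD, 4 samples each; 1.42-fold, limma adjusted p = 0.171). The median difference of these 5 was 0.30. In the fit without short-day sample 3 jbug, a filamin-type protein, was called as well, with a difference of 0.55. In the list of muscle attachment and integrin adhesion 3 of 18 measured genes rose: mys, the beta subunit of integrin, 1.21-fold; by (blistery), encoding tensin, 1.11-fold; and Zyx, zyxin, 1.19-fold. Their list had a median of 0.14 over the 17 genes of mean 4 or more. The call of Zyx was lost without short-day sample 3. No gene was called among 8 of excitation and contraction coupling, with a median of 0.15, where RyR, the channel that releases calcium, had a difference of 0.35 (95% interval 0.11 to 0.59). The 8 genes of the dystrophin complex (median 0.11), 4 filament chaperones (median 0.16) and 7 receptors and scaffolds of the neuromuscular junction (median 0.12 over the 4 of mean 4 or more) held no called gene either. Among 13 regulators of muscle formation and myoblast fusion sns, a cell adhesion protein of fusing myoblasts, rose 1.27-fold. Without short-day sample 3 its call was lost (difference 0.31) and that of kirre, its partner in fusion, was gained (difference 0.26). In the list of actin and myosin genes used outside the sarcomere none of 10 was called, and the median was 0.06. Differences in that list ran from -0.03 for dia to 0.36 for ena (95% interval 0.08 to 0.64), and 8 of the 10 were above 0. Mlc-c, the light chain of non-muscle myosin, had a difference of -0.01 (95% interval -0.16 to 0.14). Over all genes 1.79% were called higher and 1.69% lower, and 2.01% were called higher without short-day sample 3. These counts and medians are descriptions, and no difference between lists was tested.

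**Figure D5:**
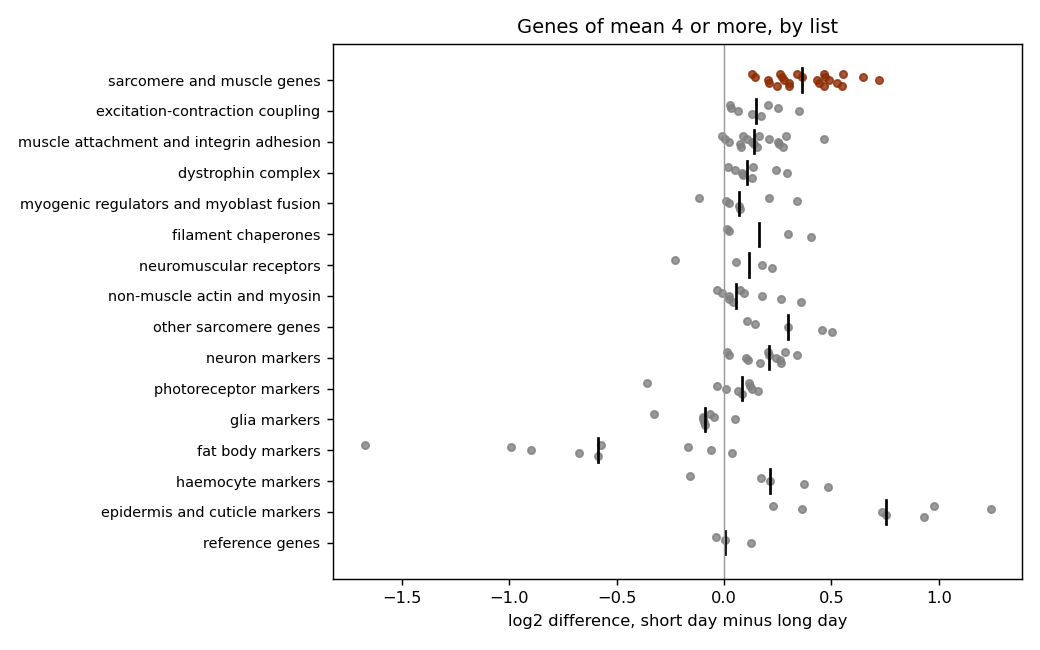
Log2 difference between short-day and long-day means (x axis) of every gene of mean 4 or more in each list (points; black line, median). The sarcomere genes have a median of 0.36, against 0.06 for actin and myosin genes used outside the sarcomere, -0.59 for fat body markers and 0.75 for epidermis and cuticle markers.

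Markers of other cell types of the head moved between the groups as well. The shares of all genes called were 1.79% higher and 1.69% lower, and 2.01% higher without short-day sample 3. Among 7 genes of epidermis and cuticle 5 rose, with a median difference of 0.75 and a summed level of 11.06 to 11.43 in long days and 11.86 to 12.20 in short days. When short-day sample 3 was left out, 4 of the 7 were called, with Cpr49Af lost. Of 10 fat body markers 7 fell and none rose, with and without short-day sample 3. The 7 were Lsp2, Lsd-1, AkhR, fit and the yolk protein genes Yp1, Yp2 and Yp3. The fall was not shared by the whole list: apolpp and FASN1 were not called, with differences of -0.06 and 0.04. Fbp1 was raised in short-day sample 3 alone. The summed level of the list was 17.56 to 17.60 in long days and 17.01 to 17.30 in short days. Its brightest member was Yp1, at a mean of 15.37. Among 12 neuron markers 2 rose, Snap25 and unc-13, with a median of 0.21 and a summed level of 15.13 to 15.36 in long days and 15.36 to 15.52 in short days. None of 9 photoreceptor, 8 glia or 6 haemocyte markers was called, with medians of 0.08, -0.09 and 0.21 over those of mean 4 or more. Of the 3 reference genes measured, Gapdh1 rose 1.09-fold. Without short-day sample 3 it was not called and RpL32 was called lower, with a difference of -0.08. The part of these shifts in the differences of the sarcomere genes was not tested.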

How the data were processed

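Head RNA was labelled as cRNA and hybridised by the authors, who deposited log2 values for each probe set. These came from GCRMA (background correction by probe sequence, quantile normalization, summary over probes), with no version named. Quantile normalization hides a change in total mRNA. The precision is limited by the 4 arrays per group.

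Control probe sets (183) were set aside. A gene was represented by its probe set of the highest mean among those annotated to it alone by the platform table, whose symbols were checked by Entrez number against RefSeq (13544 of 13647 probe sets found). The contrast of short-day and long-day samples was fitted by lmFit and eBayes of limma 3.58.1 under R 4.3.3 (two-sided, all 8 arrays, 18769 probe sets), with calls at an unadjusted p under 0.01 and Benjamini-Hochberg adjustment over all probe sets. Steps were tested on simulated data. Genes, lists and alternatives were chosen with earlier results of these data known. Values on all arrays are given for called genes, for the member of the highest mean in each role group, for those nearest the limit on short-day sample 3 and for those with a sample far from its group. From other lists, up to 3 called genes are named.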

Additional observations from a re-analysis of the deposited data

Results flagged for a closer look

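In 6 of the groups of 4 values examined over the genes' probe sets, 1 sample lay far from the other 3 by Dixon's criterion at its 95% limit. With 72 groups whose range was at least 0.1, chance flags about 1 in 20. Short-day sample 4 was low on 3 of these probe sets, at 12.48 for Act87E (the nearest value was 12.91), at 9.256 for a second probe set of sls (nearest 9.554) and at 12.57 for a second probe set of Zasp66 (nearest 12.83). Short-day sample 3 was high on a second probe set of Strn-Mlck, at 9.365, and on the probe set of Zasp67, at 2.701, where the nearest value was 2.152 in both cases. A dim probe set of Zasp66 was at 4.032 in long-day sample 1, with the nearest value at 3.896.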

How the results depend on the processing

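The number of sarcomere genes called at an unadjusted p under 0.01 was 10, against 1.52% of all tested probe sets called higher. Both moved with the processing, and every called sarcomere gene was higher in each setting. The count was 16 (3.54% of all) when the fit held only probe sets of mean 4 or more and again 16 (3.89%) at mean 6 or more, 17 (1.85%) after median centring, 6 (0.416%) with a trend and robust variance model and 5 (1.33%) without long-day sample 2 and short-day sample 3 together. Of the 10, all were among the 16, 16 and 17, and 6 and 4 among the 6 and 5. Leaving out 1 sample gave 5 to 14, where 0.954% to 1.7% of all probe sets were called higher. At an adjusted p under 0.05 the count was 0 and became 3 (Mlc2, Prm and Obsc) with the filter at 4 and 4 (these and Mlc1) with the filter at 6, where fewer probe sets were tested. It was 0 in each fit without 1 sample. The median difference was 0.31 to 0.41 without 1 sample. The study's methods do not say whether same-numbered samples form pairs. Their deviations from the group means had correlations of 0.01, -0.23, -0.14 and 0.17, which cannot settle this with 4 samples per group. With a replicate block 6 genes were called (0.964% of all probe sets), all among the 10. The calls lost there, and also with the trend and robust variance model, were those of sals, Strn-Mlck, Zasp52 and SERCA. The cause of these changes was not tested. The depth of signal limits Zasp67, which had no level above the lowest value outside 1 sample.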
